A study of Mus musculus with 19 samples.

Results

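The Brn3 genes Pou4f1, Pou4f2 and Pou4f3 were followed through 3 comparisons of mouse retina RNA-seq. They were chosen by gene symbol, and all 3 were listed in each of the tables, which hold 22294, 23635 and 35734 genes. The study concerns Pou3f1, a POU transcription factor gene, and the axons of retinal ganglion cells that cross the midline of the brain. In the overexpression experiment, eyes of wild-type CD1 mice were electroporated on postnatal day 1, and fluorescent cells were sorted 48 h or 14 days later and pooled to about 150000 cells per library. The control cells carried Gfp and the others Pou3f1, with 3 libraries of each at 48 h and 4 Gfp and 5 Pou3f1 libraries at 14 days (the protocol text gives postnatal day 14 for the later collection). For the loss of Pou3f1, C57B6J embryos of age E17.5 gave 2 whole-retina libraries from heterozygotes and 2 from homozygous knockouts. The heterozygotes carry the mutant allele too, so no wild-type retina enters that comparison. The sources used here do not give the promoter of the plasmids or the deleted part of Pou3f1.

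Retinal ganglion cells are the output neurons of the eye, and their axons form the optic nerve. Newborn ganglion cells begin to make Pou4f2 (Brn3b) after the proneural factor Atoh7 has acted, and Pou4f2 works with the LIM factor Isl1 to switch on genes of axon growth and survival. Pou4f1 (Brn3a) follows in most ganglion cells and shapes their dendrites, and it is also a central factor of sensory neurons. Pou4f3 (Brn3c) is made by a smaller set of ganglion cells and is best known as a factor that inner ear hair cells need. In the mouse, ganglion cells are born before birth, while the progenitors of the newborn retina give rise mainly to rods, bipolar cells, amacrine cells and Müller glia.

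The family members share their POU domain, the part that binds DNA, so the stretch where their RNA is most alike is shown first. The longest run of bases common to the Pou4f1 and Pou4f2 transcripts was 71 bases long and lay in the coding part of both. It is printed in capitals with 25 coding bases on each side, from GENCODE mouse release transcripts on GRCm38 (Pou4f1 at chr14:104466029-104466149, minus strand, coding bases 846 to 966, and Pou4f2 at chr8:78435037-78435157, minus strand, coding bases 816 to 936).
Pou4f1: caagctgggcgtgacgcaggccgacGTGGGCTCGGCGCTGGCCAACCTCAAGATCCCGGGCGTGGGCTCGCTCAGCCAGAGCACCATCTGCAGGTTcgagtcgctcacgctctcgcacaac
Pou4f2: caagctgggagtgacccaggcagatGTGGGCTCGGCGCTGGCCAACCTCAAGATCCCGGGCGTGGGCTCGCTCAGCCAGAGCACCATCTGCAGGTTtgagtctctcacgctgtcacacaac
Most of the rest differs between the members. Of 3174 different words of 31 bases in the Pou4f2 transcript, 61 (1.92%) also occur in Pou4f1 or Pou4f3, and 5 occur in transcripts of other genes. For Pou4f1 the shared words were 67 of 4415, and for Pou4f3 they were 11 of 2330. Over the aligned coding bases, Pou4f1 and Pou4f2 were identical at 71.5%, Pou4f1 and Pou4f3 at 79.0%, and Pou4f2 and Pou4f3 at 77.7%. The share of reads that fits more than 1 Brn3 gene was not measured.

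The windows around the start of Pou4f2 and Pou4f1 are shown because these genes differed so much in their response at 14 days. Each holds 250 bases before the RefSeq start and 50 after it (GRCm38.p6, chr8:78436598-78436897 and chr14:104467950-104468249, both minus strand), with capitals marking the GC box GGGCGG on either strand.
Pou4f2: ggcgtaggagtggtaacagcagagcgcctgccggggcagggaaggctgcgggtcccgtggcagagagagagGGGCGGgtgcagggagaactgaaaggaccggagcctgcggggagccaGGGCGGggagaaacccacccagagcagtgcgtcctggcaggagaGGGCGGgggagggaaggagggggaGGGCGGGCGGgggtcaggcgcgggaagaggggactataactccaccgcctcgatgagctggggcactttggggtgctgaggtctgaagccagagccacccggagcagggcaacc
Pou4f1: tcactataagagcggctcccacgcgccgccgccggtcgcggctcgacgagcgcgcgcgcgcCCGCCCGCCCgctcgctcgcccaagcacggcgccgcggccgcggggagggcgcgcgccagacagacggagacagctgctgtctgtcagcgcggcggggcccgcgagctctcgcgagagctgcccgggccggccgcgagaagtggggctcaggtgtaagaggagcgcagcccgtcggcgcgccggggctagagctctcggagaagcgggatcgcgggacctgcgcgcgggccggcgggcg
The Pou4f2 window held 5 GC boxes and the Pou4f1 window 2, some of them overlapping, and 35.7% of 32851 such windows hold at least 1. G and C made up 69.7% of the Pou4f2 window and 78.3% of the Pou4f1 window, against a median of 52.7%. Neither window contained the octamer ATGCAAAT, the classical word of POU factors (1.74% of windows), nor the homeodomain word TAATTA (5.29% of windows), on either strand. This says only that these letters are not within these windows.

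Each table gives log2 fold changes and p-values by gene, as the authors computed them, and nothing per library, so levels of single libraries cannot be shown. Adjusted p-values exist for 14714 genes in the 48 h table, for 17789 in the 14-day table and for 14821 in the E17.5 table. For 48 h and 14 days the tables also give a standard error (SE) and a mean normalized count over the libraries of both groups. The words rose and fell are kept for genes whose adjusted p from the authors was under 0.05. The column headers name no direction, and the sign was read from Pou3f1 itself. The heterozygote comes first in the name of the E17.5 table, and a table made in that order would turn the sign of each E17.5 value here. On the log2 scale, the authors' deposited tables put Pou3f1 at 0.91 ± 0.26 (SE) for 48 h, 5.57 ± 0.27 for 14 days and -0.69 for the knockout, so positive values mean higher with added Pou3f1 and higher in the knockout. The knockout retinas thus still had 0.620 times the Pou3f1 RNA of the heterozygotes. Nothing in the labels says that replicates came from separate litters, so p-values measure the spread between these samples only. In such bulk samples, more cells of a type and more RNA per cell cannot be told apart.

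In GRCm38, GENCODE places Pou4f2 on chromosome 8 (78433010 to 78436645, minus strand, 2 exons), Pou4f1 on chromosome 14 (104461676 to 104467999, minus strand) and Pou4f3 on chromosome 18 (42394539 to 42397249, plus strand). The levels of these genes were low to moderate. In the authors' deposited table for 48 h, the mean normalized counts were 88.1 for Pou4f1, 30.7 for Pou4f2 and 9.20 for Pou4f3. Per kilobase of exon these came to 18.9, 9.58 and 3.83, so Pou4f1 was the most abundant member and Pou4f3 the least. At 14 days the authors' deposited table gives mean counts of 74.4 for Pou4f1, 371 for Pou4f2 and 3.53 for Pou4f3. Per kilobase of exon, the 14 day levels were 15.9, 116 and 1.47, which puts Pou4f2 first. These means run over Gfp and Pou3f1 libraries together and carry no spread, and the tables were normalized separately, so neither order was tested. Among all listed genes, 58.4% had a lower mean count than Pou4f2 at 14 days, and 42.5% at 48 h.

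At 48 h none of the Brn3 genes passed the test. Of the 3 members 0 rose and 0 fell, where 1.48% of 14714 genes with an adjusted p rose and 1.56% fell (authors' DESeq2 values), and 0 of 3 had an unadjusted p under 0.05. In the authors' deposited table the log2 fold change of Pou4f2 was -0.30 ± 0.29 (SE, adjusted p = 0.710), with a 95% interval from -0.88 to 0.27. Pou4f1 was at -0.13 ± 0.27 (adjusted p = 0.891, interval -0.65 to 0.39) and Pou4f3 at -0.37 ± 0.27 (adjusted p = 0.573, interval -0.89 to 0.15) in the same deposited table of the authors. All members were thus on the lower side, with intervals that include 0. The interval of Pou4f2 does not reach the rise it had at 14 days. No SE in this table exceeds 0.296, even for genes with few counts, which is a mark of fold changes shrunken toward 0, and the SE of Pou4f2 lies near that ceiling.

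At 14 days Pou4f2 was one of the most strongly raised genes of the retina cells that received Pou3f1, and Pou4f1 and Pou4f3 did not pass the test. The authors' deposited table puts Pou4f2 at a log2 fold change of 3.64 ± 0.26 (adjusted p = 7.86e-40), which is 12.5-fold with a 95% interval from 8.72 to 17.9. No SE in the 14-day table exceeds 0.297, so its fold changes carry the same mark of shrinkage as those at 48 h. By size of rise Pou4f2 was number 6 of 17789 genes with an adjusted p, and by p-value number 11. Pou4f1 stood at -0.05 ± 0.28 (adjusted p = 0.925, interval -0.60 to 0.50) and Pou4f3 at -0.14 ± 0.27 (adjusted p = 0.770, interval -0.67 to 0.39) in the authors' deposited table. Of 3 members 1 rose and 0 fell, where 11.5% of all genes rose and 9.21% fell. The intervals of Pou4f1 and Pou4f3 lie wholly below that of Pou4f2. For Pou4f3 the deposited SE is narrower than the counts allow: a gene with its mean count, alike in both groups, would have an SE of 0.515 from counting error alone, so its interval is too narrow. At 48 h the same holds for Pou4f3, with a counting error of 0.388.

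**Figure D1:**
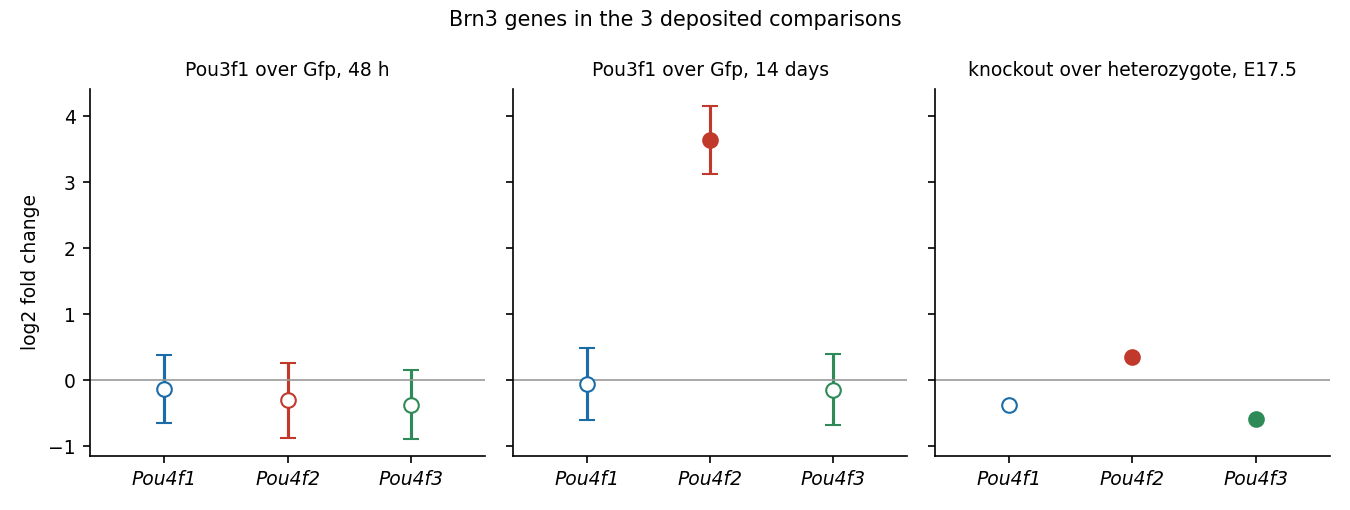
Log2 fold change (vertical axis) of Pou4f1, Pou4f2 and Pou4f3 in the 3 comparisons, as deposited by the authors, where bars are 95% intervals from the deposited SE (the E17.5 table gives none) and filled points have an adjusted p under 0.05. Pou4f2 stands at 3.64 at 14 days, while the other overexpression intervals include 0, and at E17.5 Pou4f2 lies above 0 and Pou4f1 and Pou4f3 below it.

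**Figure D2:**
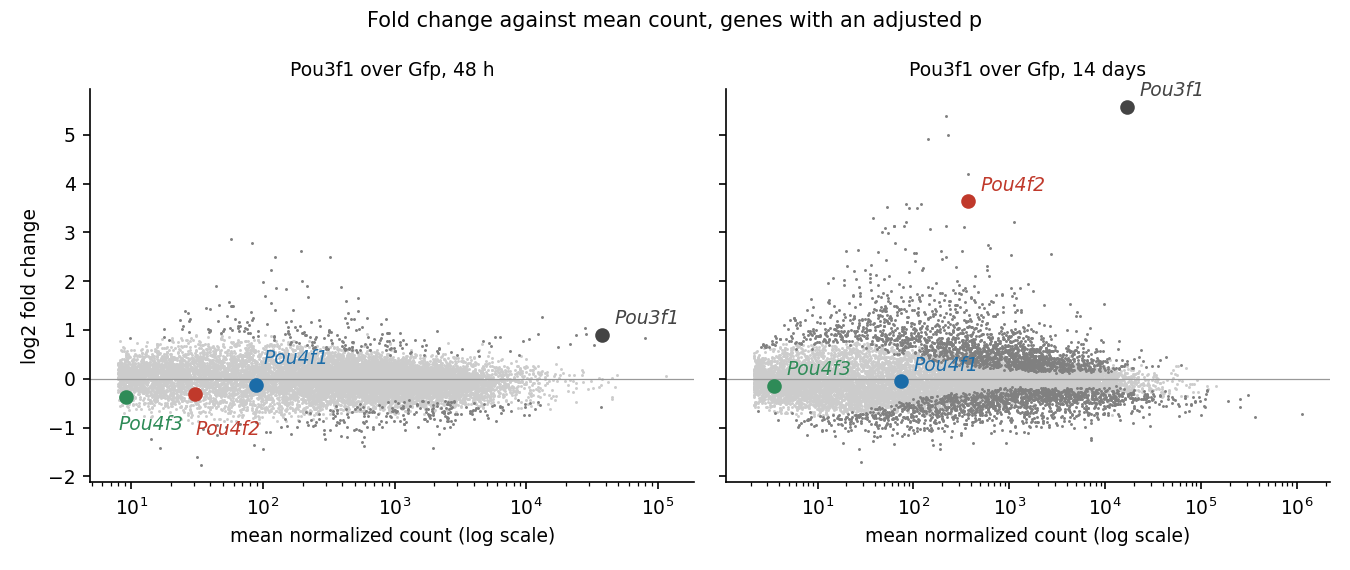
Log2 fold change against mean normalized count (log scale) for all genes with an adjusted p at 48 h and 14 days, with called genes in darker grey and the Brn3 genes and Pou3f1 in colour. At 14 days Pou4f2 lies near the top of the cloud, and Pou4f1 and Pou4f3 lie in the band of genes that were not called.

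The fold change of Pou4f2 differed between the times. Pou3f1 itself was higher by 1.87-fold at 48 h (mean count 37279) and 47.6-fold at 14 days (mean count 16972) in the authors' deposited tables. The 48 h fold was thus small at a high mean count over both groups. Either the Gfp libraries also held many Pou3f1 counts, or that fold was shrunken toward 0. Which of these holds was not tested, so the 48 h contrast is uncertain, also for Pou4f2. Time and the size of the Pou3f1 difference cannot be told apart. The log2 fold change at 14 days minus that at 48 h was 3.95 ± 0.39 (SE) for Pou4f2, by a two-sided z test on the authors' deposited fold changes and SE (adjusted p = 2.25e-20 over 14580 genes, interval 3.18 to 4.72), number 6 in size. For Pou4f1 the difference was 0.08 ± 0.39 (adjusted p = 0.944, interval -0.68 to 0.83), and for Pou4f3 it was 0.23 ± 0.38 (adjusted p = 0.811, interval -0.52 to 0.97). By this z test, 6.14% of all genes differed between the times and 4.48% were larger at 14 days. These comparisons share no library. Both sets of fold changes carry the mark of shrinkage described above, so the z test may rest on shrunken values.

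In the embryonic retina the Brn3 genes moved in different directions. Pou4f2 was higher in the knockout by 0.35 on the log2 scale in the authors' deposited table (1.27-fold, adjusted p = 0.00321). Pou4f3 was lower, at -0.59 (0.665-fold, adjusted p = 0.00554), and Pou4f1 was at -0.37 (0.772-fold, adjusted p = 0.0519) in the authors' deposited table, which misses the threshold of 0.05. Of 3 members 1 rose and 1 fell, where 4.70% of 14821 genes rose and 5.34% fell, and 3 of 3 had an unadjusted p under 0.05. Pou4f2 was number 427 from the top by fold change, Pou4f3 number 152 from the bottom and Pou4f1 number 604 from the bottom. None of these changes reached 2-fold, and the table gives no SE and no level. With 2 libraries per group the spread behind these values rests on few samples. With the sign read from Pou3f1, the Pou4f2 value is positive both with added Pou3f1 at 14 days and in the knockout, in different cells, strains and ages. Read in the other order, Pou4f2 would be lower in the knockout and Pou3f1 higher.

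Markers of other cells moved in these comparisons, and their part in the Brn3 results was not tested. At 14 days 12 of 12 microglia markers rose, with a median log2 fold change of 1.67, while 13 of 16 rod markers and 6 of 15 Müller glia markers fell and 0 rose. The summed mean counts of these lists were 3144 for microglia, 2853530 for rods and 113950 for Müller glia. Of 15 amacrine markers at 14 days, 3 rose and 0 fell, where 11.5% of all genes rose and 9.21% fell. At E17.5 10 of 13 amacrine markers fell and 1 rose, with a median of -0.75. Of all genes at E17.5, 4.70% rose and 5.34% fell. Of 9 horizontal cell markers tested at E17.5, 4 fell and 0 rose, Tfap2b of the amacrine list among them. At that age 5 of 15 Müller glia markers fell and 1 rose, and 3 of 12 vessel markers fell and 0 rose. The authors' deposited table puts the amacrine factor genes Tfap2a at -1.18 and Tfap2b at -1.01 (adjusted p from 3.03e-33 to 4.11e-29). Levels per group are not in the tables.

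Most ganglion cell markers, like most genes, did not pass the test at 14 days, when Pou4f2 rose. On the list, 29 of the 30 appear in the 48 h table. Of 30 ganglion cell structural and functional markers with an adjusted p at 14 days, 8 rose, 2 fell and 20 did not pass, with a median of 0.06 beside -0.01 for all genes. Among all genes at 14 days, 11.5% rose and 9.21% fell. Nell2, a secreted neuronal protein, rose by 1.48 ± 0.15, the growth cone gene Gap43 by 0.99 ± 0.21 and the ubiquitin hydrolase gene Uchl1 by 0.86 ± 0.18 (the authors' deposited table, adjusted p from 7.16e-20 to 7.14e-05). The synuclein gene Sncb fell, at -0.43 ± 0.09 (the authors' deposited table, with adjusted p = 0.000121). Other members of the list, named after their values were seen, went either way. The neuronal tubulin gene Tubb3 rose by 0.41, the microtubule protein gene Mapt by 0.57 and the RNA-binding protein gene Elavl3 by 0.86, and the neurofilament gene Nefh fell, at -0.36 (the authors' deposited table, adjusted p from 0.00340 to 0.0345). Rbpms, Slc17a6, Thy1 and Sncg did not pass. The authors' deposited table gives -0.50 ± 0.27 for Rbpms, an RNA-binding protein, -0.37 ± 0.25 for the glutamate transporter Slc17a6, -0.45 ± 0.25 for the surface protein Thy1 and -0.26 ± 0.28 for the synuclein gene Sncg (adjusted p from 0.188 to 0.564). At 48 h 1 of 27 such markers rose and 1 fell, with a median of -0.24. The sodium channel gene Scn1a was the one that rose (1.04 ± 0.28) and the junction protein gene Jam2 the one that fell (-0.49 ± 0.15) (the authors' deposited table, adjusted p from 0.0144 to 0.0438). At E17.5 1 of 28 rose and 5 fell, where 4.70% of all genes rose and 5.34% fell. Those that fell included the acetylcholine receptor subunit genes Chrnb3 (-1.70) and Chrna6 (-0.57) (the authors' deposited table, adjusted p from 1.65e-27 to 0.0117). The marker that rose was Rbpms2, at 0.23 (the authors' deposited table, with adjusted p = 0.0353). Rbpms, Thy1, Slc17a6 and Sncg did not pass at E17.5.

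Upstream of the Brn3 genes stand proneural factors, SoxC factors and Notch signalling. At 48 h, when Pou4f2 did not pass, 0 of 13 such regulators rose and 3 fell, with a median of -0.33. Of all genes at 48 h, 1.48% rose and 1.56% fell, with a median of -0.01. Atoh7, which makes progenitors competent for the ganglion cell fate, was at -0.89 ± 0.25, the proneural gene Neurod1 at -0.59 ± 0.18 and the receptor gene Notch1 at -0.53 ± 0.15 (the authors' deposited table, adjusted p from 0.0160 to 0.0458). At 14 days 6 of 13 rose and 0 fell, with a median of 0.40, where 11.5% of all genes rose and 9.21% fell (median -0.01). Among them were the proneural gene Neurog2 (0.85 ± 0.26) and the SoxC factors that ganglion cells need, Sox4 (1.37 ± 0.18) and Sox11 (1.18 ± 0.25) (the authors' deposited table, adjusted p from 1.47e-11 to 0.00904). Atoh7 was at -0.26 ± 0.27 at 14 days in the authors' deposited table, with a mean count of 11.7 (adjusted p = 0.555). In the knockout 1 of 13 rose and 3 fell, where 4.70% of all genes rose and 5.34% fell. The gene that rose was Atoh7, at 0.35 beside 0.35 for Pou4f2, while those that fell included Sox4 at -0.57 and the Notch target Hes1 at -0.19 (the authors' deposited table, adjusted p from 1.68e-09 to 0.0321).

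Factors that act beside or after the Brn3 proteins were followed as well. Of 39 partners and ganglion cell factors, 5 rose and 1 fell at 48 h (median 0.11), 17 rose and 0 fell at 14 days (median 0.40), and 1 rose and 6 fell of 37 at E17.5 (median -0.14). Of all genes 1.48% rose and 1.56% fell at 48 h, 11.5% and 9.21% at 14 days, and 4.70% and 5.34% at E17.5. Isl1, Lhx2, Onecut1 and Onecut2 are also among the bipolar, Müller glia or horizontal cell markers looked up here. Isl1, the partner of Pou4f2, rose by 0.46 ± 0.18 at 14 days (the authors' deposited table, with adjusted p = 0.0491), and was at -0.19 ± 0.26 at 48 h and 0.09 at E17.5 (adjusted p from 0.736 to 0.819). Eomes, a T-box factor of some ganglion cells, and Ebf3, a helix-loop-helix factor, had risen by 48 h, when Pou4f2 did not pass. The authors' deposited table gives 1.34 ± 0.24 for Eomes and 1.13 ± 0.24 for Ebf3 at 48 h (adjusted p from 1.35e-05 to 0.000656). At 14 days the homeobox genes Irx1 (2.44 ± 0.29) and Irx3 (1.33 ± 0.14) ranked near the top by p-value (the authors' deposited table, adjusted p from 5.59e-19 to 2.01e-14). In the knockout the zinc finger gene St18 (-0.94), the homeobox genes Barhl2 (-0.70) and Onecut1 (-0.36) and Tshz2 (-0.43) were among those that fell (the authors' deposited table, adjusted p from 8.22e-18 to 0.000582). Onecut1 is also among the horizontal cell markers that fell at E17.5.

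Most genes known to act downstream of Pou4f2, like most genes, did not pass the test at 14 days. Of 16 such genes with an adjusted p at 14 days, 4 rose, 1 fell and 11 did not pass, with a median of 0.32 beside -0.01 for all genes. Over all genes at 14 days, 11.5% rose and 9.21% fell. Eomes stood at 3.07 ± 0.26, Ebf3 at 2.68 ± 0.24, Gap43 at 0.99 ± 0.21 and the hedgehog effector gene Gli1 at 0.96 ± 0.28 (the authors' deposited table, adjusted p from 2.78e-29 to 0.00720). The actin-binding gene Ablim1 fell, at -0.36 (the authors' deposited table, with adjusted p = 0.0215). Pou4f1 is itself one of these genes, and its value of -0.05 is given above. Of 15 tested at 48 h, 3 rose (Eomes, Ebf3 and Ebf1) and 1 fell (Irx6, which the authors' deposited table puts at -0.83 ± 0.22, with adjusted p = 0.0106). Of 16 at E17.5, 0 rose and 1 fell. That gene was Eomes, at -0.58 (the authors' deposited table, with adjusted p = 0.000840), against the sign of Pou4f2. Eomes, Ebf1, Ebf3, Isl2, Irx2 and Irx6 are also in the list of partners, so the lists are not independent.

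**Figure D3:**
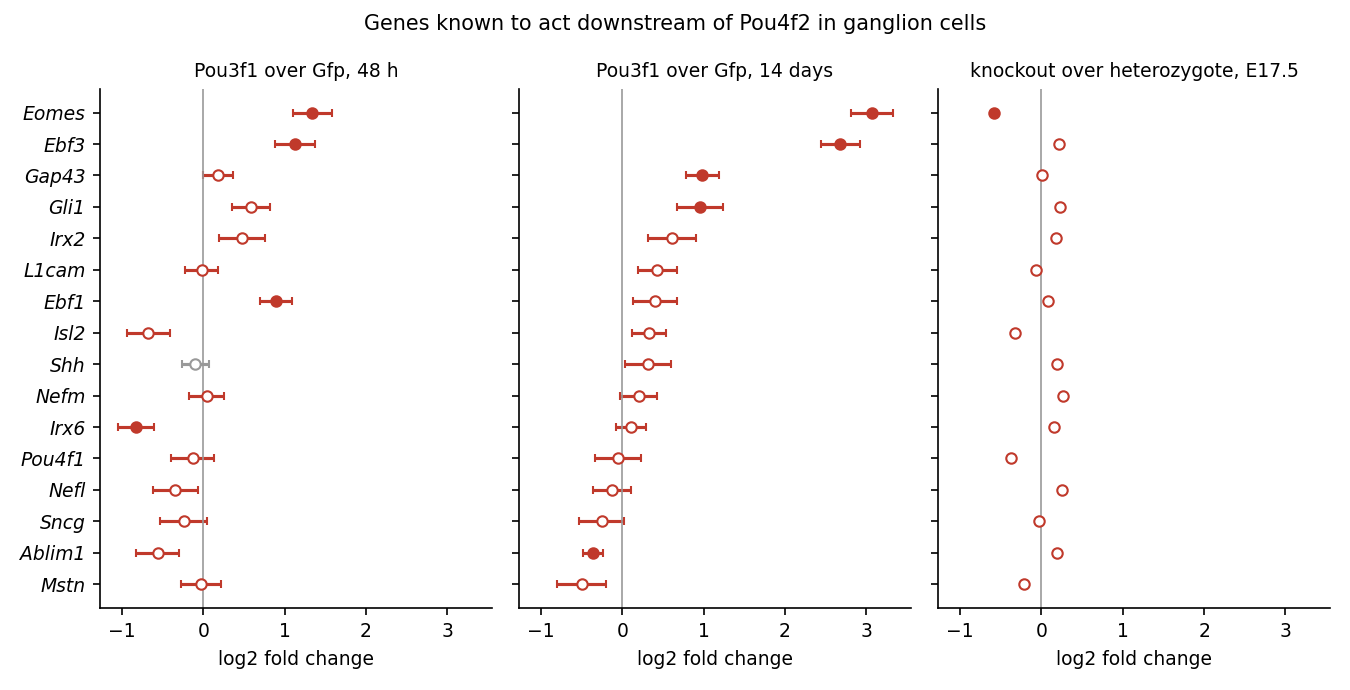
Log2 fold change (horizontal axis, same scale in all panels) of 16 genes known to act downstream of Pou4f2, with deposited SE as bars where the table gives one, filled points for an adjusted p under 0.05 and grey for genes without an adjusted p. Eomes and Ebf3 lie far to the right at 14 days and Eomes lies left of 0 at E17.5.

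Among the POU genes of other classes, 3 of 10 rose at 14 days, Pou3f1 itself included, and 0 fell. Pou3f2 (Brn2) was at 1.43 ± 0.20 and Pou3f4 at 1.10 ± 0.28 (the authors' deposited table, adjusted p from 3.28e-10 to 0.00124), both smaller than Pou4f2. In the knockout 0 of 7 rose and 2 fell, Pou3f1 and Pou6f1, the latter at -0.70 (the authors' deposited table, with adjusted p = 8.63e-09). At 48 h 2 of 9 rose and 0 fell. Over all genes 1.48% rose and 1.56% fell at 48 h, 11.5% and 9.21% at 14 days, and 4.70% and 5.34% at E17.5.

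The genes beside each Brn3 gene were read from GENCODE, 3 protein-coding genes on each side. Of the 18 neighbours, 1 of 14 tested rose at 48 h and 0 fell, 5 of 17 rose and 1 fell at 14 days, and 2 of 15 rose and 0 fell at E17.5. Shares of all genes that rose and fell were 1.48% and 1.56% at 48 h, 11.5% and 9.21% at 14 days, and 4.70% and 5.34% at E17.5. Whether the neighbour counts differ from these shares was not tested. The nearest neighbour of Pou4f2, Ttc29, lies 38.7 kb away and encodes a protein of motile cilia and sperm tails. It rose by 1.27 ± 0.29 at 14 days (the authors' deposited table, with adjusted p = 0.000233). On the other side of Pou4f2, Rbmxl1 at a gap of 68.6 kb rose by 0.21 ± 0.07 at 14 days and Lsm6, an RNA-binding protein gene at 368 kb, by 0.21 ± 0.08 (the authors' deposited table, adjusted p from 0.0241 to 0.0493). Slc10a7, between them, had risen at 48 h (0.84 ± 0.23, adjusted p = 0.0129) and stood at 0.42 ± 0.22 at 14 days (adjusted p = 0.174) in the authors' deposited tables. Beside Pou4f1, Rnf219 lies 9.54 kb away and rose by 0.25 ± 0.10 at 14 days (the authors' deposited table, with adjusted p = 0.0483). At E17.5 Rbmxl1 was the neighbour of Pou4f2 that rose, by 0.22 (the authors' deposited table, with adjusted p = 0.0262).

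**Figure D4:**
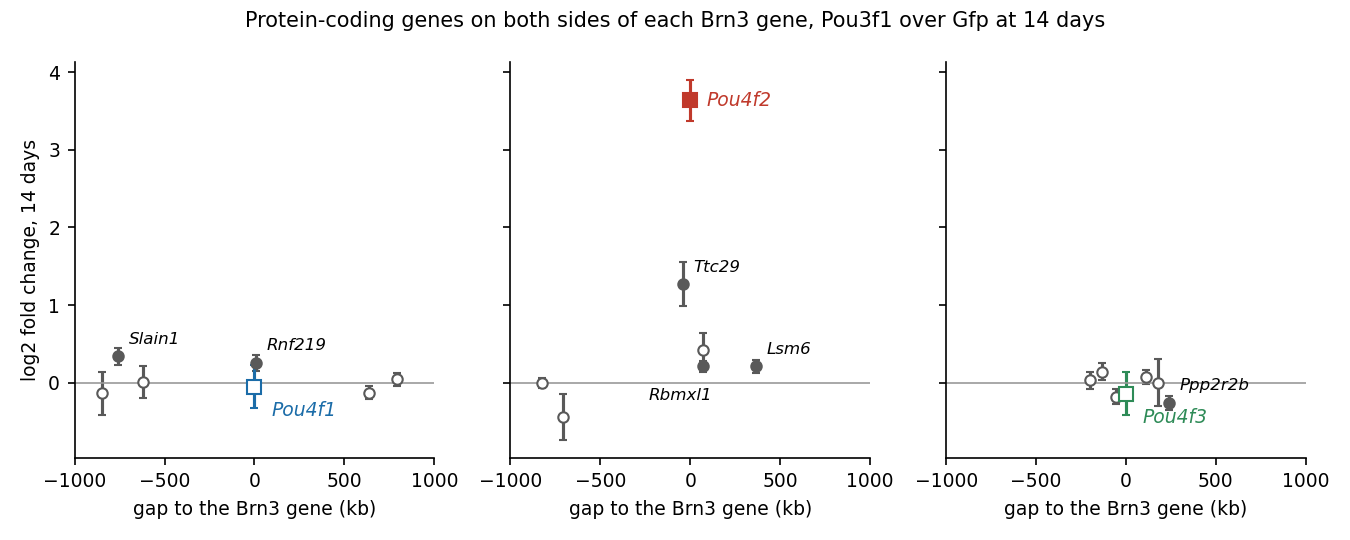
Log2 fold change at 14 days (vertical axis, bars are the deposited SE) of the 3 nearest protein-coding genes on each side of Pou4f1, Pou4f2 and Pou4f3 against the gap to that gene in kb, with filled points for an adjusted p under 0.05 and the Brn3 gene as a square at 0. Ttc29 at 1.27 is the highest neighbour shown and lies well below Pou4f2 at 3.64.

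The genes whose values were most like those of each member were found by the Euclidean distance over the log2 fold changes of the 3 comparisons, among 13165 genes. For Pou4f2 they were Fst, Myo18b, Hepacam2, Ppp1r3b and Stk33, at distances from 0.408 to 1.16. Fst, which encodes the activin antagonist follistatin, had -0.19, 3.50 and -0.02 in the authors' deposited tables, in the order 48 h, 14 days, E17.5. Myo18b, a myosin gene, had 0.06, 4.19 and 0.49 in the authors' deposited tables. For Pou4f1 the nearest genes were Zbtb49, Pcbp3, Plk2, Gpm6b and Kdm7a (distances up to 0.0641), and for Pou4f3 they were Rasgef1b, Bnip3, Gpr75, Gnb3 and Gjd2 (up to 0.0947). The genes nearest to Pou4f1 and Pou4f3 in this measure lie closer than those nearest to Pou4f2.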

How the data were processed

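RNA-seq of 19 mouse retina libraries in 6 groups had been summarised by the authors in 3 tables of comparisons. Salmon, DESeq2 and MACS2 and the mm10 build are named in the submitters' processing notes, while versions, annotation and design formula are not stated there. The log2 fold changes, their SE, the p-values and adjusted p-values were deposited by the authors. For the overexpression the authors also gave the mean normalized count as signal, and the score deposited by the authors is the Wald statistic. Checked on the values, the score equals fold change over SE, and the adjusted p is Benjamini-Hochberg over genes with an adjusted p. The E17.5 table has another embryonic day in its name than the labels, which are used here.

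The members and gene lists were chosen with earlier results of these data known. Genes named are the 3 members, Pou3f1, up to 4 called genes per list by adjusted p, the 5 most similar genes and 3 neighbours on each side. Isl1, Tubb3, Mapt, Elavl3, Nefh, Rbpms, Slc17a6, Thy1, Sncg, Ablim1 and Atoh7 at 14 days were added after their values were seen. So were Rbpms2, Rbpms, Thy1, Slc17a6, Sncg and Otof at E17.5. The z test, tested on simulated data with 14580 genes, called 68.0% of differences of 1 and 98.0% of differences of 2 on the log2 scale, and 7.26% of its calls were unchanged genes. The simulated errors were drawn with the deposited SE, without shrinkage. These rates therefore hold only where the deposited SE are right, which was not tested. Lists got no test. Some genes that the naming rule selects are not reported here. Depth per library is unknown. Scripts ran on Python 3.11.15 with scipy 1.17.1, numpy 2.4.6 and pandas 2.3.3.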

Additional observations from a re-analysis of the deposited data

Results flagged for a closer look

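Pou4f2 stood out because its fold change differed between the times by a test of the difference itself. Its log2 fold change was 3.95 higher at 14 days than at 48 h (two-sided z test on the deposited values, adjusted p = 2.25e-20). Pou3f1 itself was 1.87-fold higher at 48 h and 47.6-fold higher at 14 days, so time and the size of the Pou3f1 difference cannot be told apart. The 48 h contrast is uncertain for the reason given above.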

How the results depend on the processing

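Of 48 alternatives, 47 kept the direction and the side of the threshold or left a count of members within 1.5 times, among them an adjusted p under 0.01, adjustment over every gene with a p-value, a mean count of at least 10 and centring on the median of the genes tested. Many of the 48 could not come out otherwise, so this tally is no measure of robustness. A threshold of 0.01 cannot call a member that missed 0.05. Centring of such a member was counted as kept whatever its sign. A 2-fold limit changed the count of Brn3 genes called at E17.5 from 2 to 0. That follows from the limit itself, since both changes are smaller than 2-fold (authors' DESeq2 values, 3 of 3 with an unadjusted p under 0.05). Over every gene with a p-value, the E17.5 adjusted p of Pou4f1 was 0.0847. No paired analysis was possible because the tables hold no values per library, and for that reason no replicate could be left out. Mean counts from 3.53 to 9.20 limit what can be said of Pou4f3.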

Other observations

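Genes of the other settings in which Brn3 factors act were also looked up. Of 20 genes of Pou4f1-dependent sensory neurons tested at 14 days, 7 rose and 1 fell, and Pou4f1 itself did not pass. Shares of all genes that rose and fell were 1.48% and 1.56% at 48 h, 11.5% and 9.21% at 14 days, and 4.70% and 5.34% at E17.5. The neuropeptide gene Tac1 was at 2.19 ± 0.25, the actin regulator gene Avil at 1.42 ± 0.28 and the sodium channel gene Scn9a at 1.17 ± 0.28 (the authors' deposited table, adjusted p from 1.15e-15 to 0.000563). Among 13 hair cell genes tested at E17.5, where Pou4f3 fell, 1 rose and 4 fell, and a link to Pou4f3 was not tested. The gene that rose was Otof, at 0.52 (the authors' deposited table, with adjusted p = 0.0320). The myosin gene Myo7a was at -0.92 and the calcium-binding protein gene Calb2, which amacrine cells also express, at -0.53 (the authors' deposited table, adjusted p from 4.20e-13 to 2.29e-05). At 14 days 2 of 17 hair cell genes rose and 0 fell, and at 48 h 1 of 11 rose, the homeobox gene Barhl1, at 1.23 ± 0.29 (the authors' deposited table, with adjusted p = 0.00210).

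Copines are calcium-dependent membrane-binding proteins, and some are known to follow Brn3 factors in ganglion cells. Of 9 copine genes at 14 days, 2 rose and 1 fell, Cpne5 (0.78 ± 0.25), Cpne9 (0.55 ± 0.16) and Cpne7 (-0.67 ± 0.20) (the authors' deposited table, adjusted p from 0.00696 to 0.0140). In the knockout Cpne4 was the 1 of 8 that fell, at -1.16 (the authors' deposited table, with adjusted p = 1.82e-09). At 48 h 0 of 9 rose or fell (authors' DESeq2 values). Of all genes 11.5% rose and 9.21% fell at 14 days, 4.70% and 5.34% at E17.5, and 1.48% and 1.56% at 48 h.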
